A study of Gallus gallus with 3 samples.

Results

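Neural crest specifiers and genes of the epithelial-to-mesenchymal transition (EMT) were chosen by symbol, and all 10 genes of the rule were found among the 15916 genes measured in the chicken spinal neural tube. They are SNAI1, SNAI2, TFAP2A, TFAP2B, ETS1, EDNRB, TWIST1, MSX1, MSX2 and MITF, each on a single row. RNA-seq was carried out on wild-type White Leghorn embryos at Hamburger-Hamilton stage HH19 (1 library) and at the earlier stage HH14 (2 libraries). Each library held brachial neural tube from about 25 embryos, cut free of neighbouring tissue by hand after trypsin, and the HH19 library is labelled with the same dissection text as HH14. The tube is the epithelial precursor of the spinal cord. Both HH14 libraries share 1 deposited column, so each stage has 1 value per gene in TPM, the share of all transcripts that a gene holds after correction for transcript length. With 1 value per stage the columns allow no test. A call of higher or lower at HH19 required a log2(TPM + 1) difference of at least 1, that is 2-fold on that scale, and a mean over the 3 libraries of at least 1 TPM. This scale understates the change of low genes. The read total of each library is unknown.

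Neural crest cells arise at the dorsal edge of the neural tube. Border factors such as MSX and PAX3/7 genes mark this edge, and specifiers such as SNAI2, TFAP2A, ETS1, FOXD3 and SOX10 are then switched on in the premigratory cells. The cells lose epithelial contacts, leave the tube and form sensory neurons, glia and pigment cells. Neural crest that has left lies outside the tissue the dissection aimed to keep, and in bulk RNA fewer cells of a type cannot be told apart from less RNA per cell.

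The label of the tissue was checked first. SOX2, a general neural progenitor factor, had 185 TPM at HH19 and 178 TPM at HH14, and the neuronal tubulin TUBB3 had 540 TPM at HH19 and 213 TPM at HH14. PAX6 had 166 TPM at HH19 and 125 TPM at HH14. NKX6-1, OLIG2, SOX1 and SOX3 were not matched by symbol. Of the migrating neural crest markers, SOX10 had 3.76 TPM at HH19 and 23.8 TPM at HH14, and ITGA4 had 9.59 TPM at HH19 and 34.5 TPM at HH14, whereas FOXD3 and ERBB3 were not matched. Markers of neighbouring tissues were also present. The 4 matched paraxial mesoderm markers together had 6.03 TPM at HH19 and 5.21 TPM at HH14, the 5 endothelial markers 12.4 TPM at HH19 and 14.3 TPM at HH14, and the 5 surface ectoderm markers 109 TPM at HH19 and 141 TPM at HH14, most of it from EPCAM and KRT19.

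Of the 10 genes, 3 were called lower at HH19 (SNAI2, TFAP2A and EDNRB), 1 was called higher (ETS1) and 5 lay within 2-fold. TWIST1 had a mean below 1 TPM and was not tested. Over all 11097 tested genes 1.38% were called lower and 3.93% higher, so that 3 of 9 tested members were lower against a background of 1.38%, and 1 of 9 was higher against 3.93%. In either direction 4 of the 9 members were called, against 5.31% of all tested genes. The median log2 difference of the 9 tested members was -0.02, and that of all tested genes was 0.05. By plain TPM, 5 of the 10 members were above and 5 below their HH14 level, and 55.65% of all tested genes were above theirs.

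**Figure D1:**
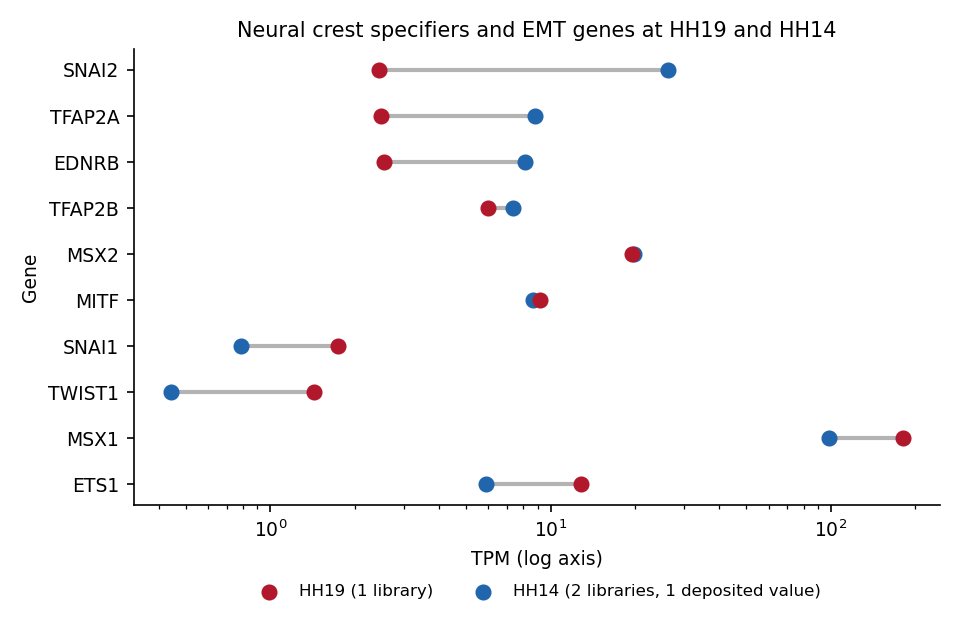
TPM of each gene (log axis) at HH19 in red and at HH14 in blue, ordered from the most negative to the most positive log2(TPM + 1) difference, with a grey bar joining the stages. SNAI2, TFAP2A and EDNRB sit near 2.5 TPM at HH19, to the left of their HH14 values, while TWIST1, SNAI1, ETS1 and MSX1 lie to the right of theirs.

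SNAI2 (ENSGALG00000015241), the Slug zinc finger repressor of cadherins and a standard marker of premigratory avian neural crest, showed the largest difference of the group. It had 2.45 TPM at HH19 and 26.3 TPM at HH14, a 10.8-fold lower level in plain TPM, with a log2(TPM + 1) difference of -2.99. Only 4 of the 11097 tested genes had a more negative difference. In rank of abundance it stood at 10028 of all genes at HH19 and at 4796 at HH14. It was the second most abundant of the 10 members at HH14, after MSX1, and the order placed it at 8 of 10 at HH19. Its paralog SNAI1 was at a far lower level at HH14, and its HH19 value was above its HH14 value. SNAI1 had 1.74 TPM at HH19 and 0.784 TPM at HH14, 2.22-fold higher in plain TPM, but its log2(TPM + 1) difference of 0.62 was under the threshold. SNAI2 exceeded SNAI1 1.41-fold at HH19 and 33.6-fold at HH14. SNAI3 was not matched by symbol.

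The 4 genes nearest to SNAI2 in the plane of log2(TPM + 1) at both stages were SOX10, MYLK, SMOC2 and AKR1D1, at distances of 0.49 to 0.93 log2 units. This likeness rests on only 2 values per gene. SOX10, a specifier kept on in migrating crest and glia, had 3.76 TPM at HH19 and 23.8 TPM at HH14. The myosin light chain kinase gene MYLK had 4.37 TPM at HH19 and 29.2 TPM at HH14.

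TFAP2A (ENSGALG00000012775), the AP-2 alpha factor needed for neural crest induction and also expressed in surface ectoderm, had 2.48 TPM at HH19 and 8.81 TPM at HH14. This is 3.56-fold lower in plain TPM, with a log2 difference of -1.50. TFAP2B, its close relative, had 5.97 TPM at HH19 and 7.37 TPM at HH14 and lay within 2-fold (log2 difference -0.26). The order of the pair thus differed between the stages: TFAP2A had 0.415 times the TFAP2B level at HH19 and 1.2 times at HH14. Of the other AP-2 genes, TFAP2C had 2.16 TPM at HH19 and 4.12 TPM at HH14 (log2 difference -0.70), and TFAP2E was below 1 TPM at both stages, with 0.582 TPM at HH19 and 0.334 TPM at HH14. For both of these the 2 HH14 libraries lay apart by the whole-read steps described below. TFAP2C had 5.60 TPM in the library denoted A and 2.64 TPM in B. Its log2 difference was -1.06 against A alone, past the threshold, and -0.20 against B alone. TFAP2E had 0.644 TPM in A (20 reads) and 0.024 TPM in B (0 reads).

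EDNRB (ENSGALG00000016912), the endothelin receptor B that marks trunk neural crest, had 2.54 TPM at HH19 and 8.10 TPM at HH14. It was 3.19-fold lower in plain TPM, with a log2 difference of -1.36. Its paralog EDNRA, which is used mainly by cranial and cardiac crest, had 5.36 TPM at HH19 and 7.38 TPM at HH14 (log2 difference -0.40). EDNRB2, the avian receptor of the pigment cell lineage, had only 0.0605 TPM at HH19 and 0.0756 TPM at HH14. EDNRB therefore stood at 0.473 times the EDNRA level at HH19 and at 1.1 times at HH14. Among the ligands and processing enzymes, EDN3 had 3.93 TPM at HH19 and 2.47 TPM at HH14, and the converting enzyme ECE1 had 40.8 TPM at HH19 and 34.7 TPM at HH14, both within 2-fold. EDN1 and EDN2 were each below 1 TPM at both stages. Of the 5 tested genes in this list 1 was called higher and 0 lower, with a median log2 difference of 0.51. The higher one was ECEL1, an endothelin-converting-enzyme-like peptidase of neurons, with 6.46 TPM at HH19 and 0.97 TPM at HH14.

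Together SNAI2, TFAP2A and EDNRB summed to 7.5 TPM at HH19 and 43.2 TPM at HH14. They occupied neighbouring places at HH19, between 2.45 and 2.54 TPM, whereas at HH14 SNAI2 stood 2.99-fold above TFAP2A. Among all tested genes TFAP2A had the 53rd and EDNRB the 66th most negative difference.

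ETS1 (ENSGALG00000001143), an ETS-family specifier best known from cranial crest and also an endothelial factor, had 12.9 TPM at HH19 and 5.91 TPM at HH14. It was 2.18-fold higher in plain TPM and its log2 difference of 1.01 stood just past the threshold, as the 430th of 436 genes called higher. Its difference was under the threshold at a pseudocount of 5 (0.71), after median-ratio scaling (0.96) and after quantile normalization (0.85). Its paralog ETS2 had 10.9 TPM at HH19 and 14.7 TPM at HH14 (log2 difference -0.40). SNAI2 stood at 0.19 times the ETS1 level at HH19 and at 4.46 times at HH14. Of 8 tested endothelial genes 1 was called higher and 0 lower, with a median log2 difference of -0.11. The higher one was ESAM, an endothelial adhesion molecule, with 3.52 TPM at HH19 and 0.945 TPM at HH14. By the whole-read steps described below, the HH14 libraries lay apart, ESAM being at 0.407 TPM in the one denoted A and at 1.48 TPM in B, and its difference of 0.86 against B alone was under the threshold. EMCN, the most abundant endothelial gene of the list, had 112 TPM at HH19 and 99.3 TPM at HH14, and PECAM1 8.17 TPM at HH19 and 11 TPM at HH14. The vascular receptor KDR had 0.494 TPM at HH19 and 0.617 TPM at HH14, and the endothelial cadherin CDH5 0.833 TPM at HH19 and 0.397 TPM at HH14. All 16 matched endothelial genes together had 143 TPM at HH19 and 135 TPM at HH14, most of it from EMCN. The part of endothelial cells in the ETS1 value was not tested.

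The 4 genes nearest to ETS1 at both stages were SCG2, ZMAT4, KCNIP4 and CELSR3, at distances of up to 0.07 log2 units. SCG2, a secretory granule protein, had 12.8 TPM at HH19 and 6.06 TPM at HH14, and CELSR3, an axon guidance cadherin, had 13.4 TPM at HH19 and 5.69 TPM at HH14.

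TWIST1, a bHLH factor of cranial crest and of mesoderm, was the lowest member at both stages, with 1.43 TPM at HH19 and 0.441 TPM at HH14. The ratio in plain TPM was 3.24, but the gene was too low to be tested. TWIST2 had 0.900 TPM at HH19 and 0.891 TPM at HH14. Of 8 tested genes of paraxial mesoderm, sclerotome and limb mesenchyme 1 was called higher and 0 lower (median log2 difference -0.01). The higher one was UNCX, which is also an interneuron factor, with 4.39 TPM at HH19 and 0.498 TPM at HH14. The myogenic genes MYF5, MYOD1 and MYOG were at most 0.265 TPM at either stage. The 19 matched genes of this list summed to 49.1 TPM at HH19 and 55.1 TPM at HH14. The collagen gene COL1A2 alone had 20.5 TPM at HH19 and 30.6 TPM at HH14, and the order of the sums turns on that gene. The part of these tissues in the TWIST1 value was not tested.

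MSX1 and MSX2, homeodomain repressors downstream of BMP signals in the dorsal midline and plate border, differed from each other in level. MSX1 was the most abundant member at both stages, with 181 TPM at HH19 and 98.5 TPM at HH14. It was 1.84-fold higher in plain TPM and remained under the threshold (log2 difference 0.87). It made up 75.7% of the summed TPM of the 10 members at HH19 and 53.3% at HH14. MSX2 had 19.6 TPM at HH19 and 19.9 TPM at HH14, a log2 difference of -0.02. MSX1 exceeded MSX2 9.26-fold at HH19 and 4.96-fold at HH14. All 10 members summed to 239.6 TPM at HH19 and 184.7 TPM at HH14, whereas without MSX1 the sums were 58.2 TPM at HH19 and 86.2 TPM at HH14.

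MITF, the master factor of pigment cells, which is also transcribed in other tissues, had 9.16 TPM at HH19 and 8.65 TPM at HH14 (log2 difference 0.07). The enzymes and structural genes that define pigment cells lay near zero at both stages. The melanin enzyme TYR had 0.370 TPM at HH19 and 0.156 TPM at HH14, DCT 0.279 TPM at HH19 and 0.160 TPM at HH14, and TYRP1 0.0246 TPM at HH19 and 0.0333 TPM at HH14. MLANA, a melanosome protein, had 0.0461 TPM at HH19 and 0.0623 TPM at HH14. By the whole-read steps described below, the HH19 values of TYRP1 and MLANA stand for 0 reads, being only the inferred 1 added read. Of the 19 matched pigment cell genes other than MITF, 12 were too low to be tested, and of the other 7 none was called higher or lower (median log2 difference 0.24). The most abundant of these 7 were SLC24A5, a cation exchanger of the melanosome, with 56.4 TPM at HH19 and 46.6 TPM at HH14, and RAB27A, a vesicle transport GTPase of many cell types, with 15.3 TPM at HH19 and 22.3 TPM at HH14. TFEB, a relative of MITF and a lysosomal gene regulator, had 11.1 TPM at HH19 and 6.77 TPM at HH14, and TFEC was at most 0.0265 TPM.

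**Figure D2:**
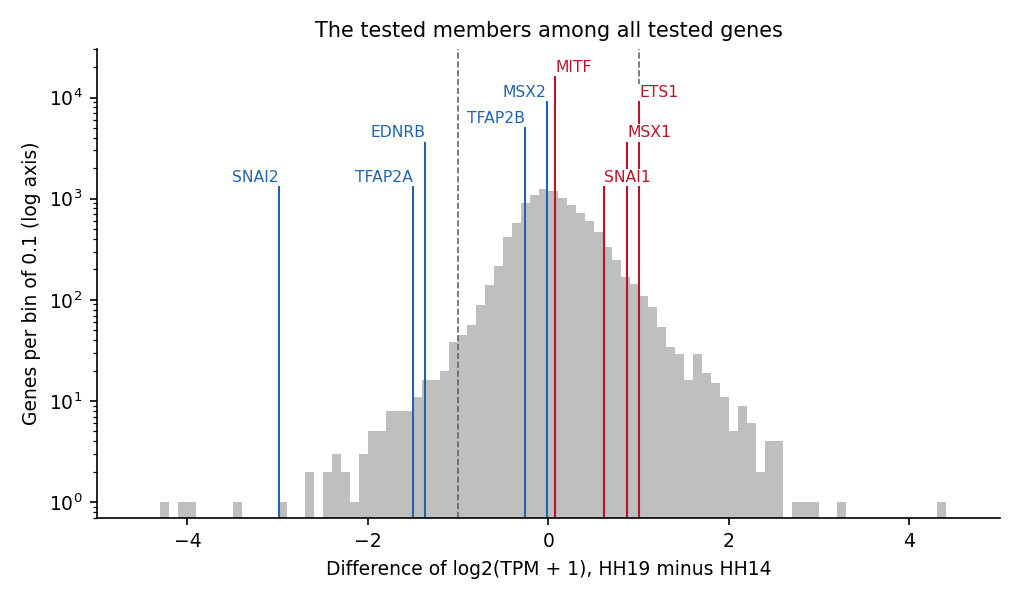
Number of tested genes (log axis) by the difference of log2(TPM + 1), HH19 minus HH14, in bins of 0.1, with the 9 tested members as vertical lines (red above 0, blue below 0) whose heights only separate the labels. Dashed lines mark a difference of 1 either way: SNAI2, TFAP2A and EDNRB lie to the left of them and ETS1 lies on the right one.

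The level in each HH14 library could be found for 4 members, because low TPM values lie on whole-read steps. Each deposited value behaves as that of the reads plus 1 added read, and the HH14 column as the plain mean of both libraries. Both points are inferred from the values, since the sources used here do not state them. The libraries are denoted A and B, since nothing ties them to the replicate numbers of the labels. On this reading B was 1.28 times as deep as A. Whole reads were accepted if no more than 0.01 solutions would arise by chance, which held for TFAP2A, TFAP2B, SNAI1 and TWIST1. SNAI2, EDNRB, ETS1, MSX1, MSX2 and MITF could not be resolved at this limit. Of all 2797 genes resolved with a mean of at least 1 TPM, 11.7% lay at least 2-fold apart between A and B on the log2(TPM + 1) scale. The 5.31% called between the stages is over all 11097 tested genes, which include abundant ones, so the 2 shares cover unlike sets. Intervals below are exact 95% Poisson intervals on the smallest whole-read solution and cover counting error only, and any multiple of those reads would narrow them.

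TFAP2A had 2.48 TPM at HH19 (95% interval 1.80 to 3.33, 42 reads), against 9.90 TPM in HH14 library A (8.44 to 11.5, 162 reads) and 7.72 TPM in library B (6.59 to 9.0, 162 reads). The HH19 value was below both HH14 libraries and its interval did not reach either of theirs. The log2(TPM + 1) difference was -1.65 against library A alone and -1.33 against library B alone.

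TFAP2B had 5.97 TPM at HH19 (5.13 to 6.90), against 7.2 TPM in HH14 library A (6.25 to 8.25) and 7.54 TPM in library B (6.68 to 8.48). The HH14 libraries lay close together, and the HH19 interval overlapped that of each. SNAI1 had 1.74 TPM at HH19 (1.33 to 2.24, 58 reads), against 0.622 TPM in library A (0.387 to 0.953, 19 reads) and 0.946 TPM in library B (0.676 to 1.29, 38 reads). TWIST1 had 1.43 TPM at HH19 (0.995 to 1.99, 33 reads), against 0.398 TPM in library A (0.197 to 0.741, 8 reads) and 0.483 TPM in library B (0.273 to 0.802, 13 reads). For SNAI1 and TWIST1 the HH19 value was above both HH14 libraries, and the HH19 interval did not overlap those of HH14. The share of all recovered genes with HH19 intervals apart from both HH14 ones, as for SNAI1, TWIST1 and TFAP2A, was not counted.

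**Figure D3:**
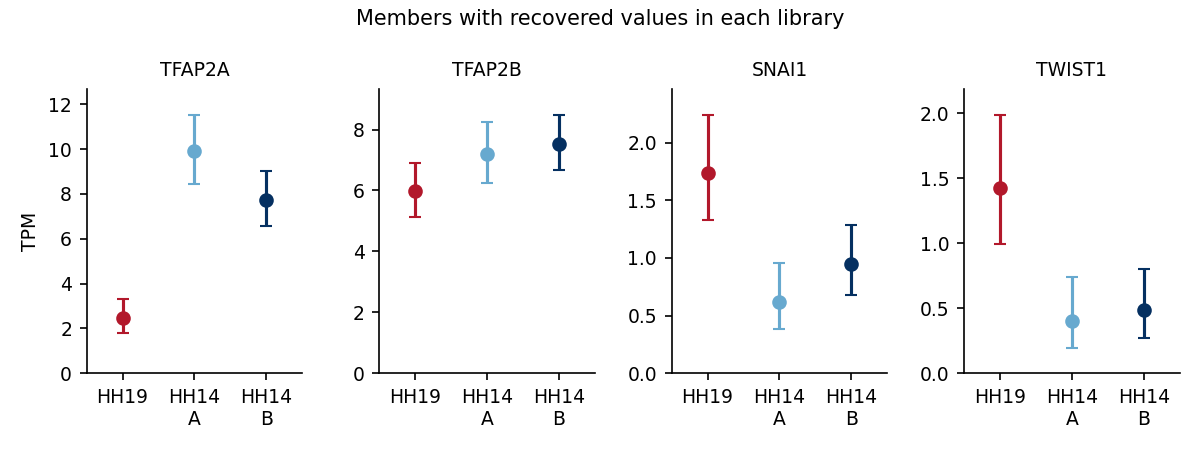
TPM of the 4 members with recovered library values, at HH19 (red) and in HH14 libraries A (light blue) and B (dark blue), on linear axes from 0, with exact 95% Poisson intervals of the reads. HH19 lies below both HH14 libraries for TFAP2A and above both for SNAI1 and TWIST1, and for TFAP2B the intervals overlap.

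limma was run on log2(TPM + 1) over all 2797 recovered genes with a mean of at least 1 TPM, HH19 against the 2 HH14 libraries. Its intervals and p-values take their spread from the 2 HH14 libraries alone, shared in part over genes. The single HH19 library adds no measure of spread at that stage. TFAP2A differed by -1.49 (95% interval -2.60 to -0.37, unadjusted p = 0.013), but its Benjamini-Hochberg adjusted p from limma was 0.37. SNAI1 differed by 0.63 (adjusted p from limma 0.78) and TFAP2B by -0.26 (adjusted p from limma 0.96). None of the 3 members tested by limma passed the adjusted threshold of 0.05. Over all 2797 genes limma called 3 higher (0.107%) and 0 lower at an adjusted p below 0.05. Without adjustment 217 were higher and 47 lower at p below 0.05.

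Most of the surface ectoderm genes with recovered values were higher in HH14 library A than in B, and TFAP2A is also a gene of that tissue. The 12 surface ectoderm genes with recovered values summed to 12 TPM at HH19, against 22.1 TPM (A) and 10.4 TPM (B) at HH14. Of these 12, 11 were higher in A than in B, some on few reads (CLDN4 on 3 and 0). The share over all recovered genes was not counted, and equal reads give a higher TPM in A, the shallower library. Higher in A were also 5 of 13 endothelial, 7 of 17 mesoderm, 7 of 14 pigment cell and 4 of 4 plate border genes. The same held for 4 of 6 endothelin, 4 of 6 caudal progenitor, 4 of 8 other specifier and 3 of 6 roof plate genes. It also held for 3 of 5 migration and 2 of 3 EMT genes. Without GATA2, the surface ectoderm gene higher in B, the sums were 8.93 TPM at HH19, against 21.5 TPM (A) and 9.67 TPM (B) at HH14. The order of HH19 and B thus turns on that gene. The abundant EPCAM and KRT19 could not be resolved by library, and the part of surface ectoderm in the TFAP2A value was not tested. Of all 11 tested surface ectoderm genes 1 was called lower and 1 higher (median log2 difference -0.42), and at a pseudocount of 0.1 the share lower was 27.3%. WNT6, an ectodermal ligand and the lower one, had 1.27 TPM at HH19, against 5.97 TPM in A and 3.45 TPM in B. Its difference was -1.62 against A alone and -0.97 against B alone. KRT14 (-1.19) and GRHL2 (-1.13), within 2-fold as deposited, also lay past the threshold against A alone. Against B alone KRT14 (0.37) and GRHL2 (-0.10) did not. GATA2, the higher one and also a factor of V2b interneurons, had 3.02 TPM at HH19, 0.612 TPM in A and 0.732 TPM in B. EPCAM had 47.6 TPM at HH19 and 74.2 TPM at HH14, and KRT19 50.3 TPM at HH19 and 52.6 TPM at HH14.

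Other genes of the neural crest programme and of neighbouring tissues were described in 12 lists. Of 17 tested specifier transcription factors 1 was called lower and 4 higher (median log2 difference 0.17). SOX10 was the lower one. The higher ones included SOX9 and SOX8. SOX9, which is also a neural progenitor gene, had 29.9 TPM at HH19 and 7.45 TPM at HH14. SOX8, its relative, had 7.97 TPM at HH19, against 2.57 TPM (A) and 2.83 TPM (B) at HH14. The BMP target ID1 had 599 TPM at HH19 and 353 TPM at HH14, and TCF12 had 285 TPM at HH19 and 284 TPM at HH14, both within 2-fold.

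Of 9 tested plate border genes 1 was called lower and 2 higher (median log2 difference 0.52), and 8 lay above their HH14 level. Of all 11097 tested genes 55.65% lay above theirs. ZIC1, a dorsal zinc finger factor, had 59.2 TPM at HH19 and 28.4 TPM at HH14, and GBX2 95.3 TPM at HH19 and 47.0 TPM at HH14. The lower one was DLX5, a factor of the border and of ectoderm, with 0.0894 TPM at HH19 (2 reads), against 8.42 TPM (A) and 3.43 TPM (B) at HH14. HES5 had 352 TPM at HH19 and 264 TPM at HH14, and HES4 149 TPM at HH19 and 77.7 TPM at HH14. Of 13 tested roof plate genes 1 was called higher and 0 lower (median 0.14), with 7 above and 6 below their HH14 level. The higher one was the WNT receptor FZD10, with 110 TPM at HH19 and 53.8 TPM at HH14. WNT4 had 497 TPM at HH19 and 324 TPM at HH14 and BMP7 35.7 TPM at HH19 and 31.5 TPM at HH14. Among those below, LMX1A had 5.6 TPM at HH19 and 8.2 TPM at HH14, and LMX1B 8.4 TPM at HH19 and 13.7 TPM at HH14. NOG, also below, had 2.4 TPM at HH19 and 5.8 TPM at HH14 (log2 difference -0.99). LMX1A, LMX1B and NOG fall outside the naming rule and were picked with their values known.

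Of 24 tested EMT and adhesion genes 0 were called higher and 1 lower, with a median log2 difference of -0.18. Of the 24, 8 lay above and 16 below their HH14 level, whereas 55.65% of all tested genes lay above theirs. The gene called lower was ITGA4, the alpha 4 integrin of migrating crest, with 9.59 TPM at HH19 and 34.5 TPM at HH14. CDH6, the cadherin of premigratory avian crest that SNAI2 represses, had 8.62 TPM at HH19 and 17.9 TPM at HH14 (log2 difference -0.97). The ZEB repressors, which act beside the SNAI factors, were within 2-fold, with ZEB1 at 33.3 TPM at HH19 and 25.7 TPM at HH14 and ZEB2 at 52.9 TPM at HH19 and 65.4 TPM at HH14. VIM, an intermediate filament of progenitors and mesenchyme, had 1987 TPM at HH19 and 1455 TPM at HH14, and RHOA had 981 TPM at HH19 and 1092 TPM at HH14. CDH6, ZEB1 and ZEB2 fall outside the naming rule and were picked with their values known.

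Of 20 tested receptor and migration genes 1 was called higher and 1 lower (median 0.40). NGFR, the p75 receptor of crest and of neurons, had 86.9 TPM at HH19 and 30.9 TPM at HH14. NRP2, a semaphorin receptor of migrating crest, had 19 TPM at HH19 and 42.4 TPM at HH14. The glial lipid-binding gene FABP7 had 1616 TPM at HH19 and 1433 TPM at HH14, and the chemokine receptor ACKR3 had 334 TPM at HH19 and 213 TPM at HH14. Of 6 tested sensory ganglion genes 3 were called higher and 1 lower (median 0.87). ISL1, PRDM12 and NEUROD1, which the spinal cord also expresses, were the higher ones, with ISL1 at 12.9 TPM at HH19 and 2.25 TPM at HH14. The lower one was EYA1, with 0.337 TPM at HH19, against 2.36 TPM (A) and 1.045 TPM (B) at HH14. Against B alone the differences of EYA1 (-0.61) and NEUROD1 (0.83) were under the threshold. Of 10 tested caudal progenitor genes 0 were called higher and 3 lower (median -0.27), namely CDX4, CDX2 and LIN28A, and against B alone CDX2 (-0.65) was under the threshold. CDX4 had 0.0707 TPM at HH19 and 16.8 TPM at HH14, and LIN28A 63.7 TPM at HH19 and 129 TPM at HH14.

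**Figure D4:**
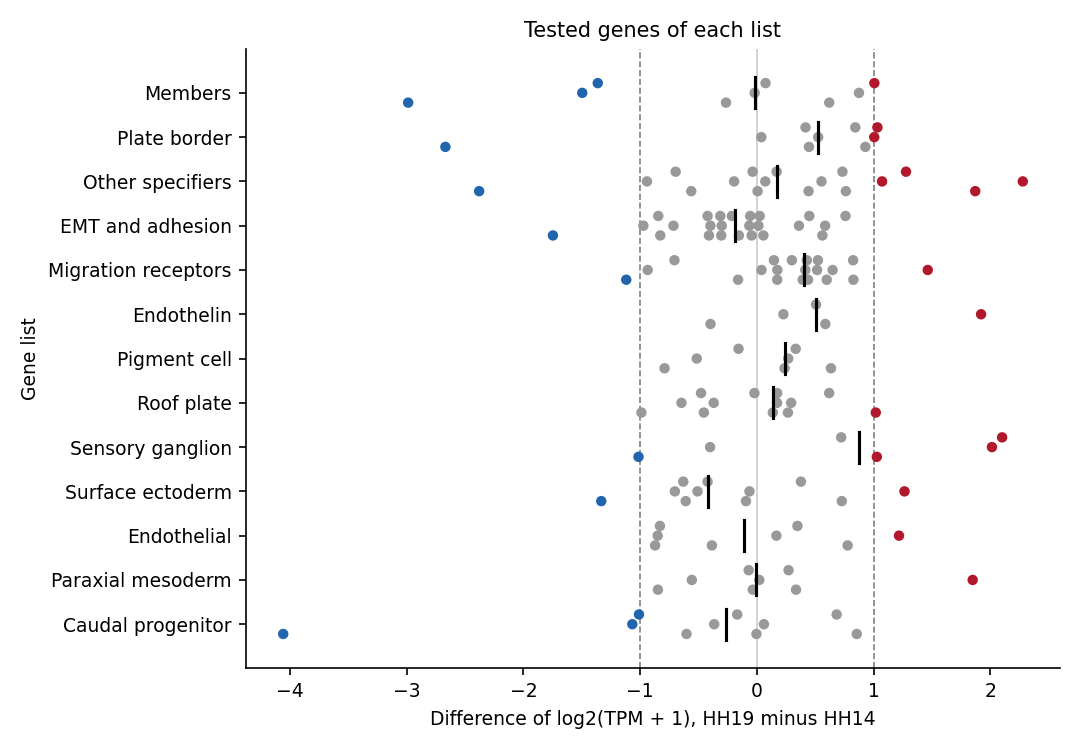
Difference of log2(TPM + 1), HH19 minus HH14, for the tested genes of each list, with 1 point per gene (red at 1 or above, blue at -1 or below, grey between) and a black bar at the median. The median of the 9 tested members lies at -0.02 with 3 points beyond -1, and that of the 24 EMT and adhesion genes at -0.18 with 1 point beyond -1.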

How the data were processed

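Polyadenylated RNA was sequenced from 1 HH19 and 2 HH14 libraries (TruSeq v2, per the labels). The authors deposited TPM per Ensembl gene in 2 columns, 1 for the HH14 pair and 1 for HH19, compared here as deposited. They sum to 946462.2 TPM at HH19 and 957153.8 TPM at HH14. The submitters' processing notes name the galGal4 build and the tools TopHat2, SAMtools, FastQC and DESeq2. What each tool did is not given in the sources used here, nor is the way the HH14 values were joined.

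The members and the gene lists were chosen with earlier results of these data known. Values were taken as log2(TPM + 1), a pseudocount of 1. Named were all members and their paralogs. In each of 12 other lists, up to 4 called genes with the largest difference and up to 2 most abundant genes within 2-fold were named, and further genes with low or unchanged values are given to show a list's level. No list gene had more than 1 row. A few list genes that this rule would name are not reported here. The 12 lists hold plate border, other specifier, EMT and adhesion, receptor and migration, endothelin, pigment cell, roof plate, surface ectoderm, mesoderm, endothelial, sensory ganglion and caudal progenitor genes.

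Whole reads were searched for up to 1500 HH19 reads, with both step sizes fitted on resolved genes. In the 1426 genes at the value of no reads the HH14 to HH19 ratio was 0.938. Library A made up 56.2% and library B 43.8% of that HH14 step, which gives the relative depth if the HH14 column is a plain mean. Over 1040 recovered genes with at least 200 HH14 reads the median log2 ratio of A to B was 0.13, a measure of scale and not of spread. In all 7612 genes (47.8%) were recovered. Nothing shows that the pools came from separate egg batches. The steps were tested on simulated data. These were built with the same added read and plain mean, so the simulation cannot check those assumptions. Calculations were done in Python 3.11.15 (pandas 2.3.3, numpy 2.4.6, scipy 1.17.1) and with limma 3.58.1 under R 4.3.3, and figures were drawn with matplotlib 3.10.9.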

Additional observations from a re-analysis of the deposited data

How the results depend on the processing

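The differences of all 10 members kept their direction under every alternative run, except that MITF (0.07) was at -0.11 after quantile normalization. SNAI2 stayed lower in each. At a pseudocount of 5, EDNRB (-0.80) and TFAP2A (-0.89) left the called genes, so that 1 member was lower and 0 higher. ETS1 left them there (0.71), after median-ratio scaling (0.96) and after quantile normalization (0.85), so that 0 members were higher. SNAI1 passed at a pseudocount of 0.1 (1.06) and with no pseudocount (1.15, chosen after seeing the data), so that 2 members were higher. Among all genes, 149 were higher and 46 lower at a pseudocount of 5, 261 and 85 at a mean of at least 5 TPM, and 683 and 292 with no pseudocount, and 279 were lower at a pseudocount of 0.1. Higher genes were 74.0% of all called genes as deposited and 58.2% after quantile normalization. At a pseudocount of 5, 0% of plate border, endothelial, endothelin, mesoderm, roof plate and surface ectoderm genes were higher and 0% of migration, sensory ganglion and surface ectoderm genes lower. At a mean of at least 5 TPM, 0% of endothelial, endothelin, mesoderm and surface ectoderm genes were higher and 0% of plate border, sensory ganglion and surface ectoderm genes lower. After median-ratio scaling, as after quantile normalization, 0% of plate border and 0% of roof plate genes were higher. A pseudocount of 5 shrinks the differences of low genes, and the minimum of 5 TPM removes them. At a pseudocount of 0.1 lists also gained lower genes, with 27.3% of surface ectoderm and 25.0% of endothelial genes lower. Summing all rows of a symbol could not alter a member, since each is on 1 row. Of 11 called list genes with recovered libraries, 0 left the called genes against HH14 library A alone and 5 did against B alone (CDX2, ESAM, EYA1, NEUROD1 and WNT6). This count covers called genes only and cannot show gains. Against A alone, LUM (-1.50), NOG (-1.24) and SP8 (1.14), among others, lay past the threshold though within 2-fold as deposited. The surface ectoderm sum without GATA2 was added after seeing the data. With 1 HH14 library left out at a time, the difference ranged from -1.65 to -1.33 for TFAP2A, -0.29 to -0.24 for TFAP2B, 0.49 to 0.76 for SNAI1 and 0.71 to 0.80 for TWIST1. At chance limits of 0.001, 0.003 and 0.03, chosen after seeing the data, 3, 3 and 5 members were recovered, the last including MSX2 at 20.0 TPM in A and 19.7 TPM in B. No paired analysis was possible because the HH19 library carries no replicate number and stands alone. Depth limits the library values to low genes, and the differences of SNAI2, EDNRB, ETS1, MSX1 and MITF have no replicate check.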
